A study of Mus musculus with 4 samples.

Results

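Hdac3-null LSK/Flt3- cells of mouse bone marrow were compared with wild-type LSK/Flt3+ cells. The members of this comparison were taken from the sample titles and are 3 of the 4 Affymetrix arrays of the series: 2 arrays of the null LSK/Flt3- fraction (replicates 1 and 2) and 1 array of the wild-type LSK/Flt3+ fraction. The null mice had the genotype Vav-Cre/Hdac3Flox/-, that is 1 floxed and 1 deleted Hdac3 allele together with Cre under the Vav promoter, active across blood cells and some endothelium. The other group was wild type, both groups were of the C57BL/6 background, and each array held RNA of flow-sorted cells pooled from 5 to 30 mice. The age of the mice, whether the wild-type mice carried Cre and whether different mice gave the null replicates are not named in the labels used here, so the p-values reflect no more than sample-to-sample spread, part of which may be technical. Genotype and sorted fraction both differ between these groups. The single wild-type LSK/Flt3- array therefore served as a reference to separate them.

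LSK cells lack the surface markers of mature blood lineages and carry Sca-1 and Kit. They hold blood stem cells together with early multipotent progenitors. As LSK cells lose self-renewal and gain lymphoid potential they place the receptor tyrosine kinase Flt3 on their surface, and they begin to transcribe lymphoid genes such as Dntt, Rag1 and Il7r, so the Flt3+ fraction is enriched in lymphoid-primed progenitors and the Flt3- fraction in stem cells. Hdac3 is the catalytic subunit of the NCoR and SMRT corepressor complexes, which remove acetyl groups from histones.

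Values are log2 expression levels, and a difference of 1 on this scale is 2-fold. Across 19938 genes, the SD of the log2 differences was 0.43 between the null replicates, and 0.48 and 0.39 between either of them and the LSK/Flt3+ array. The median log2 level of all probe sets was 5.60 on null replicate 1 and 5.30 to 5.36 on the other arrays. Precision is limited by the number of arrays, with a median standard error of 0.34 for null against LSK/Flt3+ cells. Hdac3 stood at a log2 level of 5.71 on null replicate 1, 5.04 on replicate 2, 6.18 in wild-type LSK/Flt3- and 6.33 in LSK/Flt3+ cells. It was lower on both null arrays, but the difference of -0.96 ± 0.38 (SE) did not pass the limma test (adjusted p = 1), and whether its probes lie within the deleted exons is unknown here. Kit, the stem cell factor receptor of the LSK gate, stood between 10.11 and 10.77 on the 4 arrays. Sca-1 (Ly6a) had no probe set assigned to it alone and was not analysed here. Among lists of mature cell markers, the mean log2 level over the 4 arrays ran from 5.12 to 5.57 for 17 B lineage genes, 4.71 to 5.01 for 18 T and NK cell genes, 5.25 to 5.48 for 18 neutrophil genes, 5.15 to 6.58 for 22 macrophage genes and 5.49 to 6.60 for 17 MHC class II and dendritic cell genes, against 5.85 to 5.98 for all genes. The LSK/Flt3+ array held the highest mean of the macrophage and of the class II lists.

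The comparison was dominated by genes that were lower in the null cells. Members of the lymphoid priming, macrophage, class II and chemokine lists were among them, and the largest falls included Dntt, C1qc, Cd36, Mrc1, Ms4a7 and Ccl3. The short list of higher genes held Xist, Scin, Slamf1, Gimap4, Ms4a3 and Snora73b. In the limma fit at an adjusted p of 0.05, 56 genes fell, which is 0.281% of the 19938 tested, and 7 rose, which is 0.0351%. Together these 63 genes are 0.316% of those tested. At an unadjusted p of 0.05, 460 genes were lower and 225 higher (2.31% and 1.13%, together 3.44%). These shares of all genes are the background for the counts within gene lists below, also for lists with 0 called. A difference of 2-fold or more on both null arrays, with no test, was seen for 215 lower and 52 higher genes (1.08% and 0.261%, together 1.34%). With robust estimation of the spread the test called 99 lower and 15 higher genes, and after each array was centred on its median it called 85 and 10. Restricting the fit to 8418 genes with a mean level of 6 or more left 17 and 5. The deposited table does not say which genes stood above background, and the mean null level was below 6 for 50 of the 56 genes that fell.

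**Figure D1:**
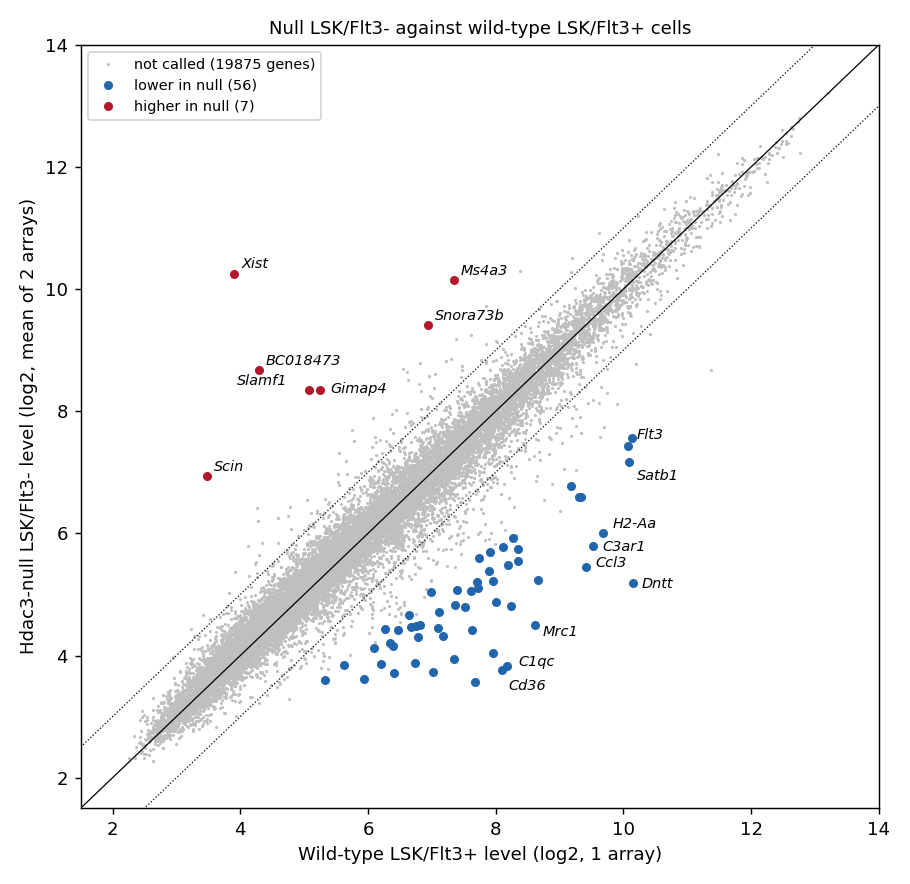
Log2 level of each of 19938 genes in wild-type LSK/Flt3+ cells (x axis, 1 array) and in null LSK/Flt3- cells (y axis, mean of 2 arrays), with the line of equality and dotted lines at a 2-fold difference. The 56 genes that fell (blue) lie below the lower dotted line, and the 7 genes that rose (red) lie above the upper one.

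For every gene the difference from wild-type LSK/Flt3+ cells is the sum of 2 steps. The fraction step runs from wild-type LSK/Flt3+ to wild-type LSK/Flt3- cells, and the genotype step from wild-type to null LSK/Flt3- cells. Of the 56 genes that fell, 39 had a fraction step of at least 2-fold and a genotype step below 2-fold, 12 had both steps at 2-fold or more, 4 had the genotype step alone at that size and 1, Tlr7, had neither. Of the 7 that rose, 5 had the genotype step alone at that size and 2 had both. Over all genes, 35 were at least 2-fold higher in wild-type LSK/Flt3- cells (0.176%) and 184 at least 2-fold higher in LSK/Flt3+ cells (0.923%). The genotype step alone, tested in limma, gave 4 genes that rose (0.0201%; Xist, BC018473, Ms4a3 and Gimap4) and 0 that fell, with 219 higher and 259 lower genes at an unadjusted p of 0.05 (1.1% and 1.3%, together 2.4%). The counts of steps only describe where the reference array lay: the called genes were chosen with the LSK/Flt3+ array that also enters the fraction step, and each fraction step rests on 1 array a side and has no test. When the difference between the steps was itself tested in limma, 0 of 19938 genes passed in either direction (smallest adjusted p = 0.574), with 170 and 95 genes at an unadjusted p of 0.05 (0.853% and 0.476%, together 1.33%) and a median standard error of 0.64. No gene is therefore shown to owe more to the one step than to the other.

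Lymphoid priming genes that passed the test were all lower in the null cells. Of 27 measured genes of this list, 4 fell in limma (14.8% of the list, against 0.281% of all genes falling) and 0 rose. The list includes Flt3, on whose protein the groups were sorted, and its fall, counted here, is no independent result. At an unadjusted p of 0.05, 13 were lower, against 2.31% of all genes. The median log2 difference was -0.62, against 0.05 over all genes, with -0.66 and -0.78 on null replicates 1 and 2 alone. Fewer cells of a type and less RNA per cell cannot be told apart in such bulk samples.

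Dntt, the template-free polymerase that adds nucleotides at antigen receptor gene junctions, had a level of 5.83 on null replicate 1, 4.56 on replicate 2, 8.33 on the wild-type LSK/Flt3- array and 10.14 on the LSK/Flt3+ array. Both null arrays lay below both wild-type arrays, and Dntt fell by 4.95 on the log2 scale from LSK/Flt3+ cells (± 0.50, SE; adjusted p = 0.00275). That was the largest fall of any gene that passed the test. Its steps were -1.81 for the fraction and -3.14 for the genotype, and the genotype step alone did not pass over all genes (adjusted p = 0.149).

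Satb1, a chromatin organiser of lymphoid progenitors, had levels of 7.38 and 6.96 on the null arrays, 9.46 in wild-type LSK/Flt3- and 10.09 in LSK/Flt3+ cells. Satb1 fell by 2.92 (± 0.37, SE; adjusted p = 0.00931), with steps of -0.63 and -2.29, so the wild-type arrays lay close together and the null arrays apart from both. Flt3 itself, the receptor that defines the wild-type sort, stood at 7.84 and 7.02 on the null arrays, 9.18 in wild-type LSK/Flt3- and 10.07 in LSK/Flt3+ cells. Flt3 fell by 2.64 (± 0.42, SE; adjusted p = 0.0317), with steps of -0.89 and -1.75. The groups were sorted on Flt3 protein, so its transcript is no independent result. Its call held in 5 of 8 other settings, over which the adjusted p ran from 0.00207 to 0.134. Il7r, the interleukin-7 receptor chain of lymphoid progenitors, stood at 4.39 and 4.03 on the null arrays, 4.96 in wild-type LSK/Flt3- and 6.34 in LSK/Flt3+ cells. Here the wild-type LSK/Flt3- array lay nearer to the null arrays, and Il7r fell by 2.13 (± 0.32, SE; adjusted p = 0.0231), with steps of -1.38 and -0.75.

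The lymphoid genes next in order of their difference did not pass. Rag1, a subunit of the recombinase that cuts antigen receptor genes, stood at 4.41 and 4.34 on the null arrays against 5.06 and 6.01 in wild-type LSK/Flt3- and LSK/Flt3+ cells (log2 difference -1.64, adjusted p = 0.0720). Blnk, a B cell receptor adaptor, was at -1.47 (adjusted p = 0.115), and Cnn3, a calponin, and Cd96, an immunoglobulin family receptor, were at -1.56 and -1.49 (adjusted p = 0.178 for both). Rag1 and Blnk passed in 3 and 4 of 7 other settings. At the other end of the list Ikzf1, a zinc finger regulator of lymphoid fate, was at -0.37 (adjusted p = 1) and the highest member at 0.13. A fall was thus shown for 4 of the 27 genes, among them Flt3 of the sort, and cannot be stated for the rest.

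Genes of the B lineage, which marks a later stage than priming, had a median of -0.22, and 0 of 17 passed the test. The largest differences were those of Cd72 (-1.45, adjusted p = 0.300) and of the surrogate light chain gene Vpreb1 (-1.33, adjusted p = 0.460). For Vpreb1 the wild-type arrays were alike (8.15 in LSK/Flt3- and 8.13 in LSK/Flt3+) and the null arrays lower (6.59 and 7.02). For T and NK cells the list median was 0.09, with 0 of 18 genes called, and Thy1 at 1.20 (adjusted p = 0.953) was the farthest from 0.

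The macrophage genes that passed the test were lower in the null cells. Of 22 measured genes of this list, 6 fell (27.3%, against 0.281% of all genes falling) and 0 rose. At an unadjusted p of 0.05, 16 were lower, against 2.31% of all genes. A difference below 0 was seen for 20 of 22, against 8594 of 19938 over all genes. The list median was -1.04, with -1.20 for the fraction step and -0.17 for the genotype step. The mean log2 level over the list was 6.58 on the LSK/Flt3+ array, 5.25 on the wild-type LSK/Flt3- array and 5.16 and 5.15 on the null arrays. Only 1 array of LSK/Flt3+ cells was analysed here, so whether these genes belong to that sorted fraction or to that library cannot be told apart.

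C1qc, a chain of the complement component C1q made by tissue macrophages, had levels of 3.59 and 4.05 on the null arrays, 4.89 in wild-type LSK/Flt3- and 8.18 in LSK/Flt3+ cells, and fell by 4.36 (± 0.34, SE; adjusted p = 0.000514). Mrc1, the mannose receptor CD206, had levels of 4.46 and 4.53 on the null arrays, 4.70 in wild-type LSK/Flt3- and 8.62 in LSK/Flt3+ cells, and fell by 4.13 (± 0.32, SE; adjusted p = 0.000514). For Mrc1 the 3 LSK/Flt3- arrays spanned less than a log2 unit, and the LSK/Flt3+ array stood alone. The other members that fell were Msr1, a scavenger receptor (log2 difference -3.28, adjusted p = 0.00167), Adgre1, an adhesion receptor widely used to identify mouse macrophages (-2.84, adjusted p = 0.00563), Mpeg1, which encodes a pore-forming protein (-2.72, adjusted p = 0.00931), and Cd163, the haemoglobin scavenger receptor (-1.98, adjusted p = 0.0432, up to 0.0608 in another setting).

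The other macrophage genes did not pass. C1qa and C1qb, whose products assemble with that of C1qc, were at -0.81 and -1.32 (adjusted p = 1 and 0.379), and Vcam1 was at -1.45 and Lyz2 at -1.56 (adjusted p = 0.216 and 0.224). Cd68, a lysosomal protein gene, stood at 8.02 and 8.38 on the null arrays, 6.95 in wild-type LSK/Flt3- and 8.54 in LSK/Flt3+ cells. It had steps of opposite sign, -1.59 for the fraction and 1.25 for the genotype, which left -0.34 between them (adjusted p = 1). Marco, a scavenger receptor of some resident macrophages, was at -0.17 (adjusted p = 1).

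In the list of MHC class II and dendritic cell genes, 4 of 17 fell (23.5%, against 0.281% of all genes falling) and 0 rose, with a median of -0.71. H2-Aa, the class II alpha chain, had levels of 5.47 and 6.53 on the null arrays, 6.95 in wild-type LSK/Flt3- and 9.68 in LSK/Flt3+ cells (-3.68 ± 0.46, SE; adjusted p = 0.00931, and 0.0576 at its highest over the other settings). The class II beta chain gene H2-Ab1 also fell (-2.74, adjusted p = 0.0139), as did Cd74, the invariant chain that guides class II molecules (-2.73, adjusted p = 0.00884), and the costimulatory ligand gene Cd86 (-2.20, adjusted p = 0.0235). For these 4 genes the fraction step ran from -1.70 for Cd86 to -2.73 for H2-Aa and the genotype step from -0.49 to -0.95. Xcr1 and Zbtb46, genes of conventional dendritic cells, were at 0.37 and 0.16, and Siglech of plasmacytoid dendritic cells at -0.58, each with an adjusted p of 1.

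Outside the macrophage and class II lists, a number of the genes that fell are also known from phagocytes. Apart from the largest falls, these were singled out after their values were seen. Cd36, a scavenger receptor for lipids, stood at 3.80 and 3.72 on the null arrays, 4.43 in wild-type LSK/Flt3- and 8.09 in LSK/Flt3+ cells (-4.33 ± 0.31, SE; adjusted p = 0.000514). Ms4a7, a macrophage membrane protein gene, and Retnla, a secreted protein gene of alternatively activated macrophages, fell as well (-4.11 and -3.91, adjusted p = 0.000514 for both). So did the genes of the complement fragment receptors, C3ar1 (-3.73, adjusted p = 0.00188) and C5ar1 (-2.55, adjusted p = 0.00968). The lectin receptor genes Clec4a1, Clec4a3 and Clec4n stood at -2.33, -2.32 and -1.98 (adjusted p from 0.0231 to 0.0243), the interferon-inducible gene Ifi207 at -3.44 (adjusted p = 0.00275), the secreted protein gene Wfdc17 at -3.21 (adjusted p = 0.00359), the inhibitory receptor gene Lilrb4a at -2.80 (adjusted p = 0.0231) and Ly86, whose product pairs with a relative of the Toll-like receptors, at -2.51 (adjusted p = 0.0147). The calls of Lilrb4a and Ly86 were lost in 1 of 8 and 1 of 7 other settings (adjusted p = 0.0555 and 0.0511). In this group Retnla and C3ar1 had genotype steps of 0.15 and 0.21 against fraction steps of -4.06 and -3.94. Dab2, an endocytic adaptor gene, was at -3.12 with its brighter probe set (adjusted p = 0.00359), but its other probe set was near 3.1 to 3.3 on all arrays with a difference of 0.10, and the call was lost when both were averaged (adjusted p = 0.0880).

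The promoters of 4 leading genes are shown here because C1qc and Mrc1 led the macrophage genes, Dntt fell most of all and Ms4a3 was a myeloid gene that rose. They are RefSeq sequences of the GRCm38.p6 build, matched by symbol, from 250 bases before to 50 bases after the annotated start, written 5′ to 3′ along the gene. Capitals mark GAGGAA or its reverse complement TTCCTC, the core letters of sites of PU.1, a transcription factor of myeloid and lymphoid progenitors. The C1qc window is chr4:136892865-136893164 (minus strand), that of Mrc1 chr2:14229164-14229463 (plus), that of Dntt chr19:41029025-41029324 (plus) and that of Ms4a3 chr19:11640802-11641101 (minus).
C1qc: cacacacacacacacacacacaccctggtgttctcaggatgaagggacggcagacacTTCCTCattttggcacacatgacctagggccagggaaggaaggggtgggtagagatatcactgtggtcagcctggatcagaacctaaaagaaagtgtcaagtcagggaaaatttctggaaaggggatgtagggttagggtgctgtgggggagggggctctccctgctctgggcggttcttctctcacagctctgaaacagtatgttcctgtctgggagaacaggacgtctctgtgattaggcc
Mrc1: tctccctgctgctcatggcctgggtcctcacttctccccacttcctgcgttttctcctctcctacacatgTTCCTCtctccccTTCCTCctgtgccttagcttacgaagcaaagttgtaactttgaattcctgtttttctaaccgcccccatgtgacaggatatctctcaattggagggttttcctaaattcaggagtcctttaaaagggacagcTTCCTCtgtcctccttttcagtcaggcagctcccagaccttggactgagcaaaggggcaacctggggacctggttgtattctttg
Dntt: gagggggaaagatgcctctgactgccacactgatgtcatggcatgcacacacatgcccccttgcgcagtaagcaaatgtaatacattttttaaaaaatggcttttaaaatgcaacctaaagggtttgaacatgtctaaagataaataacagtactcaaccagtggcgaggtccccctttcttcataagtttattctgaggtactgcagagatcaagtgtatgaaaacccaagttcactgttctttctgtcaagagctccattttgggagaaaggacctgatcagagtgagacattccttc
Ms4a3: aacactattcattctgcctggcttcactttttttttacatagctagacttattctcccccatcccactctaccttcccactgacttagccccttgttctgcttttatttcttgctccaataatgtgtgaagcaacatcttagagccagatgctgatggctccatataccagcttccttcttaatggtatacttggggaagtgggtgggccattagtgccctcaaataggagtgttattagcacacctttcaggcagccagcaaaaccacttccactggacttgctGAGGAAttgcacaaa

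The motif occurred 3 times in the Mrc1 window, once each in those of C1qc and Ms4a3, and these letters are not in the Dntt window. Promoters were listed for 43 of the 56 genes that fell, and 21 of their 53 promoters (39.6%) held the motif on either strand. It was in 2 of the 5 promoters (40.0%) found for the 7 genes that rose and in 28.3% of all 32851 listed promoters. A match describes letters in a window and is not evidence of binding.

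**Figure D2:**
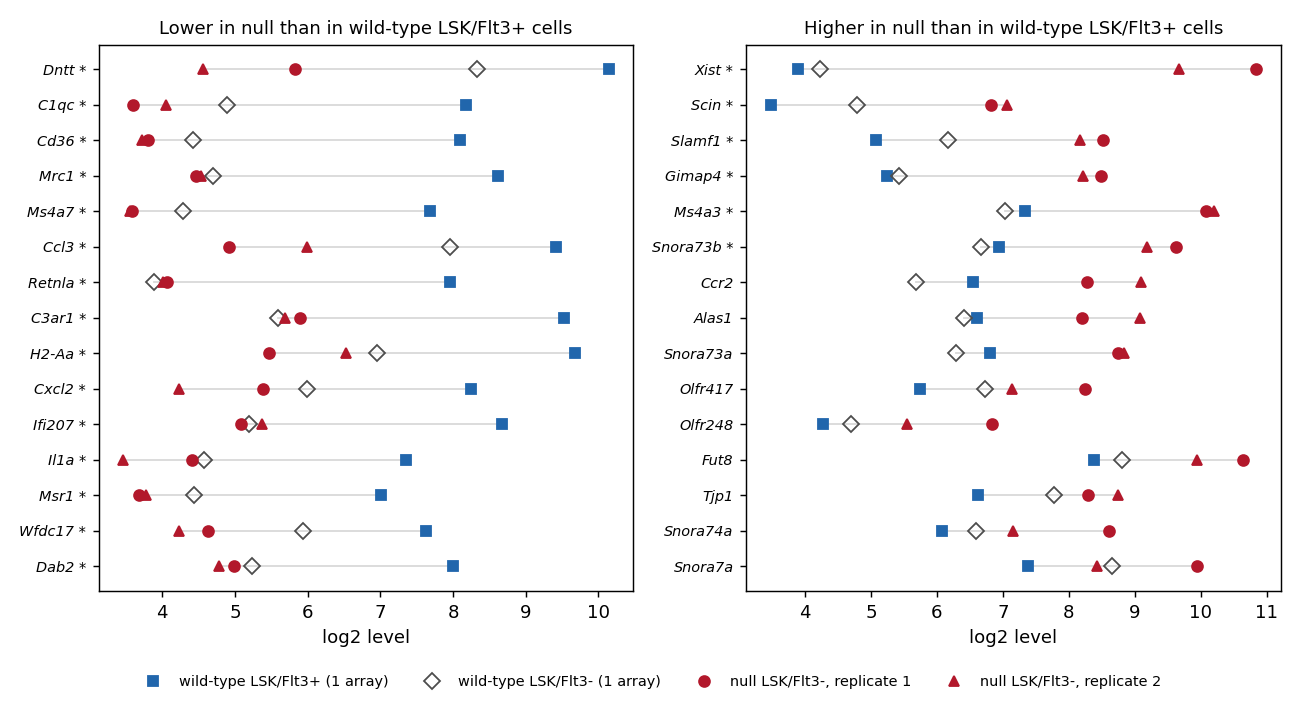
Log2 levels on each array of the 15 named genes with the largest fall (left) and rise (right) from LSK/Flt3+ to null cells, ordered with genes past the limma test (asterisks) first. On the left the wild-type LSK/Flt3+ array is highest for all 15 genes and the wild-type LSK/Flt3- array lies near the null arrays for genes such as Mrc1 and Retnla but between the groups for Dntt and Ccl3.

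The chemokine list held 2 genes that fell. Ccl3, a chemokine that attracts monocytes and T cells, had levels of 4.92 and 6.00 on the null arrays, 7.96 in wild-type LSK/Flt3- and 9.42 in LSK/Flt3+ cells, and fell by 3.96 (± 0.46, SE; adjusted p = 0.00619). Its steps of -1.45 and -2.51 were both over 2-fold. The neutrophil chemokine Cxcl2 stood at 5.39 and 4.22 on the null arrays, 6.00 in wild-type LSK/Flt3- and 8.24 in LSK/Flt3+ cells (-3.44 ± 0.46, SE; adjusted p = 0.0126), again with both steps over 2-fold. Of 17 chemokine and receptor genes these 2 fell (11.8%, against 0.281% of all genes falling) and 0 rose, and Ccl2 was at -1.71 (adjusted p = 0.113). Cxcl16, a chemokine gene outside the list, also fell (-2.72, adjusted p = 0.00931). Its steps were -2.59 for the fraction and -0.13 for the genotype, unlike those of Ccl3 and Cxcl2. Chosen like Cxcl16 after their values were seen, the interleukin-1 genes Il1a and Il1b also fell (-3.42 and -2.60, adjusted p = 0.00619 and 0.0147). So did the decoy receptor gene Il1r2 (-2.41, adjusted p = 0.0124) and Ptgs2, the inducible cyclooxygenase (-2.36, adjusted p = 0.0249, up to 0.0571 in another setting).

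Immediate early and heat shock genes, which respond within minutes to stimulation or stress, had a list median of -0.85, with -0.84 and -0.80 on null replicates 1 and 2 alone. Of 25 measured genes 2 fell (8.0%, against 0.281% of all genes falling) and 0 rose. At an unadjusted p of 0.05, 13 were lower, against 2.31% of all genes. Hspa1a, the inducible chaperone HSP70, stood at 6.47 and 6.70 on the null arrays, 8.05 in wild-type LSK/Flt3- and 9.30 in LSK/Flt3+ cells (-2.72 ± 0.36, SE; adjusted p = 0.0124). Atf3, a stress-induced transcription factor, stood at 5.52 and 5.25 on the null arrays, 6.29 in wild-type LSK/Flt3- and 7.90 in LSK/Flt3+ cells (-2.52 ± 0.35, SE; adjusted p = 0.0147). For both genes the levels stepped down from LSK/Flt3+ through wild-type LSK/Flt3- to the null arrays. Egr2 was at -1.83 (adjusted p = 0.0642), and Fos, Zfp36, Egr1 and Jun were at -1.41, -1.39, -1.35 and -1.31 with adjusted p from 0.294 for Fos to 0.459 for Jun. The chaperone genes Hspd1 and Hsp90aa1, which are abundant in unstressed cells, were at 0.14 and 0.10 (adjusted p = 1). The probe sets of the chaperone gene Hspa8 disagreed. The differences were 0.05 and 0.01 on those with the higher means over all arrays. Another was the brightest on both wild-type arrays, at 12.54 in wild-type LSK/Flt3- and 12.24 in LSK/Flt3+ cells. It stood at 9.56 and 9.64 on the null arrays (-2.64), and the cause of the disagreement was not tested.

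Interferon response genes were below 0 in 25 of 25 cases, against 8594 of 19938 over all genes, with a median of -0.44 and -0.41 and -0.47 on null replicates 1 and 2 alone. In limma over all genes 0 passed, and 3 (12.0%) were lower at an unadjusted p of 0.05, against 2.31% of all genes. The largest were Oas1a, a sensor of double-stranded RNA, at -1.31 (adjusted p = 0.414) and Rtp4 at -1.15 (adjusted p = 0.664). The medians of the steps were -0.13 for the fraction and -0.38 for the genotype.

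A few genes fell with at least a 2-fold genotype step and a smaller fraction step. Besides Satb1 and Flt3 these were Emcn and Tlcd4. Emcn, an endothelial and stem cell sialomucin gene, stood at 4.67 and 4.24 on the null arrays, 6.44 in wild-type LSK/Flt3- and 7.09 in LSK/Flt3+ cells (-2.63 ± 0.34, SE; adjusted p = 0.0108). Tlcd4 stood at 3.93 and 4.39 on the null arrays, 6.28 in wild-type LSK/Flt3- and 6.39 in LSK/Flt3+ cells (-2.23 ± 0.34, SE; adjusted p = 0.0243, up to 0.0739 in another setting). For both, the wild-type arrays were close and the null arrays lower. Emcn was the single member called among 16 endothelial and stromal genes (6.25%, against 0.316% of all genes called), whose median was -0.14.

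Genes higher in the null cells were fewer and were mostly set apart by the null arrays. Ms4a3, which marks granulocyte-monocyte progenitors, had levels of 10.08 and 10.20 on the null arrays, 7.03 in wild-type LSK/Flt3- and 7.34 in LSK/Flt3+ cells. It rose by 2.80 (± 0.35, SE; adjusted p = 0.00931), with a fraction step of -0.32 and a genotype step of 3.11 (adjusted p = 0.0321 for the latter). Gimap4, a lymphocyte GTPase gene, had levels of 8.48 and 8.22 on the null arrays, 5.43 in wild-type LSK/Flt3- and 5.25 in LSK/Flt3+ cells, and rose by 3.10 (± 0.36, SE; adjusted p = 0.00592). Its relatives Gimap7 and Gimap3 were at 1.20 and 1.02 (adjusted p = 0.752 and 0.926), and the other 5 Gimap genes lay between -0.02 and 0.37.

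Slamf1, the surface receptor CD150 that marks stem cells within the LSK gate, had levels of 8.52 and 8.17 on the null arrays, 6.16 in wild-type LSK/Flt3- and 5.08 in LSK/Flt3+ cells. It rose by 3.27 (± 0.37, SE; adjusted p = 0.00506) with steps of 1.08 and 2.18, so the order of levels was null, wild-type LSK/Flt3-, LSK/Flt3+. Scin, which encodes an actin-severing protein, had the same order: 6.81 and 7.06 on the null arrays, 4.79 in wild-type LSK/Flt3- and 3.48 in LSK/Flt3+ cells (3.46 ± 0.33, SE; adjusted p = 0.00188). The small nucleolar RNA gene Snora73b stood at 9.63 and 9.18 on the null arrays against 6.66 and 6.94 in wild-type LSK/Flt3- and LSK/Flt3+ cells (2.46 ± 0.38, SE; adjusted p = 0.0249), and its near-identical copy Snora73a at 8.74 and 8.84 against 6.29 and 6.81 (1.98, adjusted p = 0.0642). Probes of such copies may share targets, and the call of Snora73b held in 5 of 8 other settings. The seventh gene that rose, BC018473, an unnamed transcript, stood at 8.90 and 8.44 on the null arrays against 4.62 and 4.29 in wild-type LSK/Flt3- and LSK/Flt3+ cells (adjusted p = 0.000882). Next in size among genes short of the threshold, besides Ccr2 and Alas1 below, were the olfactory receptor genes Olfr417 and Olfr248 (1.94 and 1.92), the fucosyltransferase gene Fut8 (1.91), the tight junction gene Tjp1 (1.89) and the small nucleolar RNA genes Snora74a and Snora7a, with adjusted p from 0.112 to 0.581.

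Xist, the long RNA of X inactivation in female cells, had levels of 10.84 and 9.67 on the null arrays, 4.23 in wild-type LSK/Flt3- and 3.90 in LSK/Flt3+ cells which is a rise of 6.35 (± 0.48, SE; adjusted p = 0.000514). Eif2s3y, Kdm5d and Uty, which lie on the Y chromosome, were measured on all arrays, with 7.33, 8.02 and 6.43 on null replicate 1, 6.08, 7.31 and 5.68 on replicate 2, and 7.86, 8.32 and 6.70 in LSK/Flt3+ cells. Their differences of -1.15, -0.66 and -0.65 did not pass (adjusted p = 1 for each). Xist was thus high on both null arrays and low on both wild-type arrays, while the Y-linked genes were present in both groups. In the genotype step, 2 of these Y-linked genes were lower at an unadjusted p of 0.05 (limma), against 1.3% of all genes. The sex of the pooled mice is not named in the labels used, so genotype and sex mix cannot be told apart for these genes. The part of sex in the other differences was not tested.

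The granulocyte-monocyte progenitor list was split by the steps. Among its 28 measured genes, 1 rose and 2 fell in limma (10.7% called, against 0.316% of all genes), and the median was 0.29. The median of the fraction step was -0.49 and that of the genotype step 0.68. The medians of the steps thus had opposite signs, and at an unadjusted p of 0.05 the genotype step alone had 13 of the 28 higher and 0 lower, against 219 higher (1.1%) and 259 lower (1.3%) of all genes. Both steps contain the same single wild-type LSK/Flt3- array with opposite sign, so a deviation of that array alone would also give opposed steps, here and for the genes and lists below, and this was not tested.

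Ccr2, the chemokine receptor of monocytes and their progenitors, stood at 8.28 and 9.10 on the null arrays, 5.69 in wild-type LSK/Flt3- and 6.54 in LSK/Flt3+ cells. Both null arrays were more than 3-fold above the LSK/Flt3+ array, yet the difference of 2.15 ± 0.42 (SE) did not pass (adjusted p = 0.102). Csf2rb, the shared chain of the receptors for GM-CSF, IL-3 and IL-5, was at 1.58 (adjusted p = 0.201), the granule protease genes Ctsg and Prtn3 at 1.30 and 1.27, and Mpo, the myeloperoxidase of azurophil granules, at 0.74. Anxa3, an annexin gene, is an example of opposed steps: its levels of 8.50 and 8.86 on the null arrays, 6.64 in wild-type LSK/Flt3- and 7.91 in LSK/Flt3+ cells gave steps of -1.27 and 2.04 and a difference of 0.77 (adjusted p = 1). The members that fell, Csf1r and Cd33, were apart from this pattern. Csf1r, the macrophage growth factor receptor, stood at 5.59 and 5.97 on the null arrays, 5.77 in wild-type LSK/Flt3- and 8.11 in LSK/Flt3+ cells (-2.34 ± 0.36, SE; adjusted p = 0.0250, up to 0.0742 in another setting), and Cd33, an inhibitory lectin of myeloid cells, was at -2.53 (adjusted p = 0.0159). For both, the 3 LSK/Flt3- arrays were within a log2 unit of each other.

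Mature neutrophil genes had a median of 0.45, and 1 of 18 fell (5.56%, against 0.281% of all genes falling), the cytokine gene Il1b given above. The granule genes Ltf (4.35 to 4.82 over the 4 arrays) and Camp (5.12 to 5.58) were low throughout. Mast cell, basophil and eosinophil genes had a median of -0.09 with 0 of 18 called. The protease gene Gzmb (1.66, adjusted p = 0.115) and the amine transporter gene Slc18a2 (adjusted p = 0.455) were farthest above 0 and the prostaglandin synthase gene Hpgds farthest below (-1.38, adjusted p = 0.248). Here also steps opposed each other. Fcer1a, a chain of the IgE receptor, stood at 6.51 and 7.44 on the null arrays, 4.31 in wild-type LSK/Flt3- and 5.53 in LSK/Flt3+ cells (difference 1.45, adjusted p = 0.506; steps -1.22 and 2.66). Mcpt8, a basophil protease gene, stood at 7.73 and 9.20 on the null arrays, 7.01 in wild-type LSK/Flt3- and 9.04 in LSK/Flt3+ cells, so the null replicates lay on either side of the LSK/Flt3+ array (difference -0.57, adjusted p = 1).

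**Figure D3:**
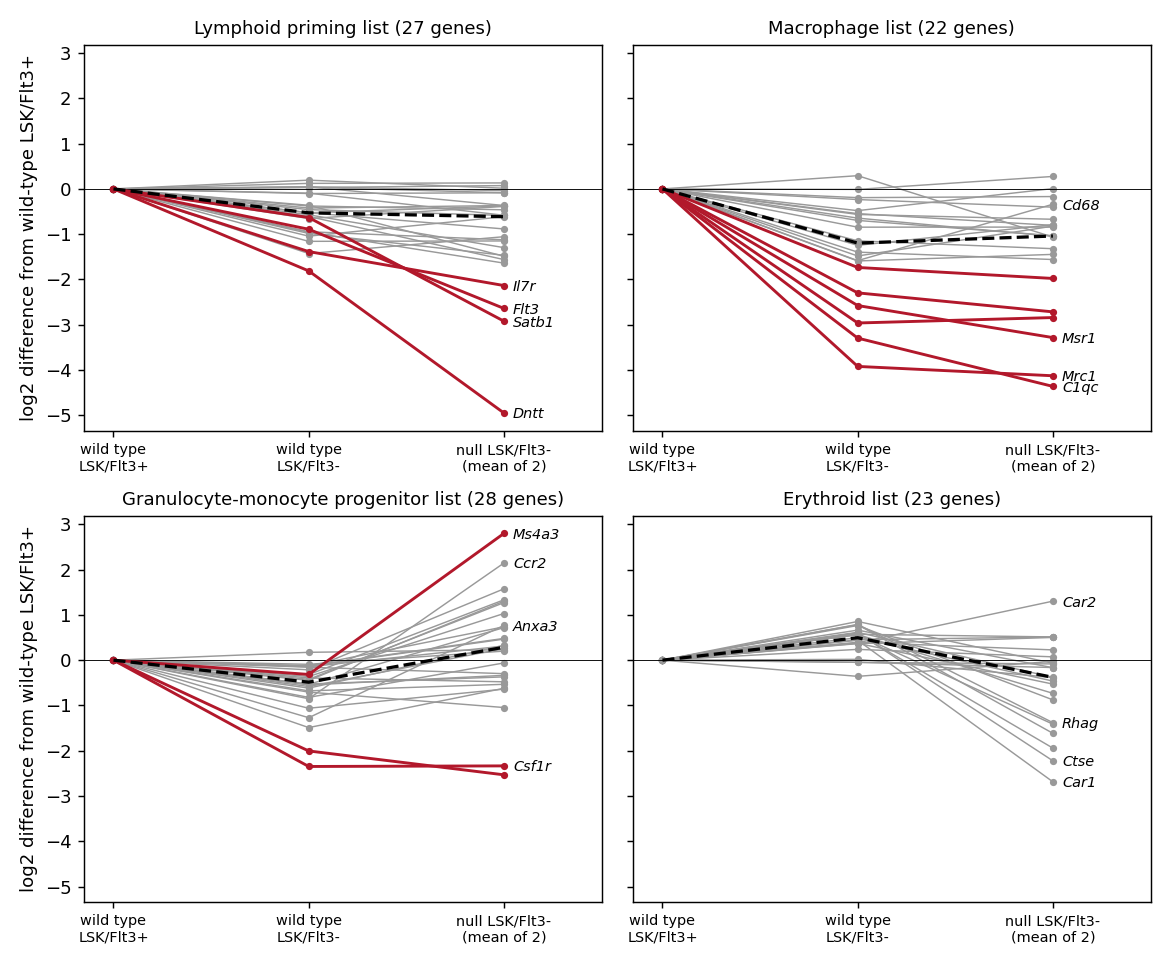
Log2 difference from wild-type LSK/Flt3+ cells (y axis) for each measured gene of 4 lists, at wild-type LSK/Flt3+ (set to 0), at wild-type LSK/Flt3- (1 array) and at null LSK/Flt3- (mean of 2 arrays). Red lines are genes past the limma test against LSK/Flt3+ cells, grey lines the others and the dashed line the list median: the macrophage median drops in the fraction step, from 0 to -1.20, and the granulocyte-monocyte progenitor and erythroid medians turn at the wild-type LSK/Flt3- array (-0.49 and 0.50).

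Of the stem cell genes, Slamf1 passed the test. Of 30 measured genes of the list 1 rose (3.33%, against 0.0351% of all genes rising) and 0 fell. At an unadjusted p of 0.05, 6 were higher and 2 lower, against 1.13% and 2.31% of all genes. The list median was 0.25, with medians of 0.21 for the fraction step and 0.01 for the genotype step. Vwf, the von Willebrand factor gene of platelet-biased stem cells, stood at 6.93 and 8.11 on the null arrays, 6.22 in wild-type LSK/Flt3- and 5.78 in LSK/Flt3+ cells (1.74, adjusted p = 0.432). Gata2, a stem cell transcription factor, was at 1.01 and the integrin gene Itga6 at 0.93 (adjusted p = 1 for both). In the other direction Eya1 was at -1.34 (adjusted p = 0.980). Mecom, a regulator of stem cell maintenance, again had opposing steps, 0.78 for the fraction and -1.32 for the genotype, and a difference of -0.54 (adjusted p = 1). Of the gate genes, Cd34 was at -0.74 and Cd48, which is absent from the most primitive stem cells, at 0.33 (adjusted p = 1 for both).

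The megakaryocyte and platelet list had a median of 0.50, with 0 of 20 called, with 0.26 from null replicate 1 and 0.71 from replicate 2 alone. F2r, a thrombin receptor gene, stood at 8.75 and 8.95 on the null arrays, 7.62 in wild-type LSK/Flt3- and 7.29 in LSK/Flt3+ cells (1.56, adjusted p = 0.223). The platelet chemokine genes Ppbp and Pf4 differed most between replicates, with 6.35 and 8.66 for Ppbp and 7.31 and 10.04 for Pf4, against 6.52 and 9.20 in LSK/Flt3+ cells.

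Erythroid genes gave another case of opposed steps. Of 23 measured genes 0 passed and 4 were lower at an unadjusted p of 0.05, against 2.31% of all genes. The median was -0.38, composed of a fraction step with a median of 0.50 and a genotype step with a median of -0.90, and it was -0.61 on null replicate 1 and -0.08 on replicate 2. Car1, which encodes an erythroid carbonic anhydrase, stood at 6.44 and 10.92 on the null arrays, 11.81 in wild-type LSK/Flt3- and 11.37 in LSK/Flt3+ cells (-2.69 ± 1.27, SE; adjusted p = 1), so a single null array carried most of its difference. Ctse, Cldn13 and Tspan8, 3 other erythroid genes, were at -2.22, -1.94 and -1.62 (adjusted p = 0.536, 0.530 and 1), with replicate 1 lower than replicate 2 for each. Car2, a second carbonic anhydrase gene, went the other way at 1.30 (adjusted p = 0.337). In the heme synthesis list 0 of 11 passed. Alas1, its first enzyme, stood at 8.19 and 9.08 on the null arrays, 6.41 in wild-type LSK/Flt3- and 6.61 in LSK/Flt3+ cells (2.03, adjusted p = 0.160), and the other 10 genes lay between -0.29 and 0.70.

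The series title names DNA replication, and genes of that process were examined in this comparison. Of 57 genes of the list 0 passed limma, and 0 had an unadjusted p under 0.05, against 3.44% of all genes. Of the 57, 32 were above and 25 below 0, and the median was 0.03, against 0.05 for all genes. The largest differences were those of Rnaseh2b (-0.84), which removes RNA from DNA, the single-strand binding protein gene Rpa3 (-0.83) and the catalytic polymerase gene Pola1 (0.81), each with an adjusted p of 1. Rpa3 stood at 7.51 and 8.17 on the null arrays against 8.55 and 8.67 in wild-type LSK/Flt3- and LSK/Flt3+ cells. Over all genes, the smallest differences called were -1.72 and 2.465 on the log2 scale. With a standard error near 0.34, replication genes could thus differ by well over 2-fold without passing. Ccr2, outside this list, was at 2.15 and did not pass (limma adjusted p = 0.102). Mitosis genes had a median of -0.19, with -0.28 and -0.04 on null replicates 1 and 2 alone, against 0.11 and -0.01 over all genes. Of these genes 25 of 32 were below 0, against 8594 of 19938 over all genes, and 0 were called. Cdc20, an activator of the anaphase-promoting complex, led them at -0.84. Nucleotide synthesis and DNA repair genes had medians of 0.13 each, and cyclin, CDK and RB family genes of 0.004, with 0 called in any of these lists.

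Among the CDK inhibitors, 2 of 6 measured genes stood just outside the threshold. Cdkn1b, whose product p27 holds back S phase entry, had levels of 6.76 and 6.86 on the null arrays, 8.50 in wild-type LSK/Flt3- and 8.87 in LSK/Flt3+ cells (-2.06 ± 0.36, SE; adjusted p = 0.0527). Cdkn2c, an inhibitor of CDK4 and CDK6, had levels of 4.23 and 4.87, 6.07 and 6.50 in the same order (-1.96 ± 0.36, SE; adjusted p = 0.0705). For both, the wild-type arrays were close together and the null arrays lower, with genotype steps of -1.69 and -1.53. Cdkn1b has another, less bright probe set, at 7.05 and 6.99 on the null arrays, 7.44 in wild-type LSK/Flt3- and 7.30 in LSK/Flt3+ cells (difference -0.29), and with both averaged its adjusted p was 0.566. The other 4 inhibitors lay between -0.25 and -0.03.

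Among p53 target genes 1 of 18 fell (5.56%, against 0.281% of all genes falling). It was Plk2, a stress-induced kinase gene, with levels of 4.32 and 4.65 on the null arrays, 5.75 in wild-type LSK/Flt3- and 6.75 in LSK/Flt3+ cells (-2.27 ± 0.33, SE; adjusted p = 0.0194, up to 0.0511 in another setting). The list median was 0.09, and Btg2 was at -1.11 and Zmat3 at 0.77. Apoptosis genes had a median of 0.08 with 0 of 17 called, and the BH3-only gene Bcl2l11 was at -1.31 (adjusted p = 0.309). Of 15 genes of the HDAC3 corepressor complex and other histone deacetylases 0 passed, with Hdac9 farthest from 0 at -1.20 (adjusted p = 0.444). Hox cluster genes had a median of 0.21, with 0 of 17 called. Of 24 cholesterol and lipid genes 1 fell (4.17%, against 0.281% of all genes falling), the scavenger receptor gene Cd36 given above, and the list median was 0.16.

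**Figure D4:**
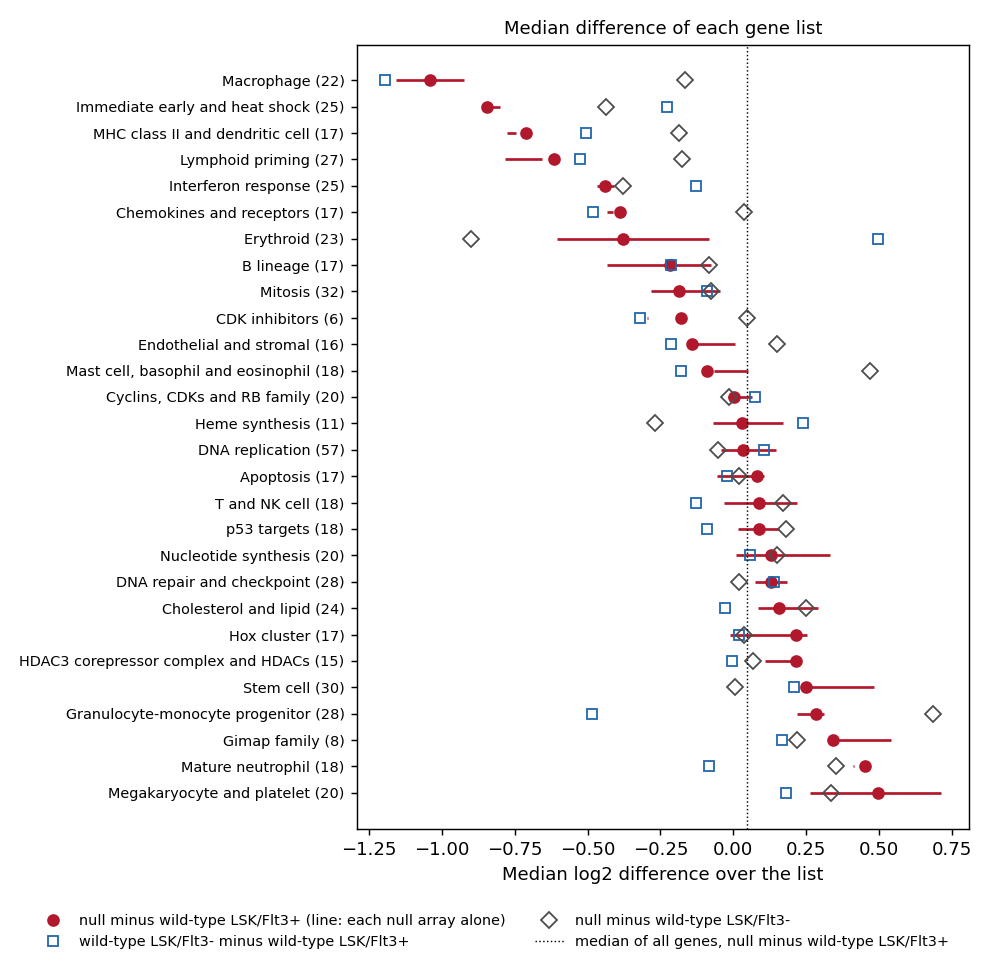
Median log2 difference of each gene list (number of measured genes in brackets) between null and wild-type LSK/Flt3+ cells (red points, with lines spanning the medians on each null array alone, which need not hold the median of the mean), for the fraction step (squares) and for the genotype step (diamonds). The macrophage list is lowest at -1.04, and the granulocyte-monocyte progenitor and erythroid lists have step medians on opposite sides of 0.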

How the data were processed

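The authors deposited log2 values, which the submitters' processing notes tie to RMA in affy 1.23. No scan date or genome build was at hand, so batches could not be formed and coordinates are given for the RefSeq promoters alone.

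Of 35556 probe sets, 21789 had a single gene symbol in the platform's annotation, 1621 had several and 12146 had no listed symbol; the last 2 kinds were left out. Each of 19938 genes was represented by its probe set with the highest mean. All 4 arrays entered a limma 3.58.1 fit (R 4.3.3) with 3 groups and a mean-dependent prior (1 residual and 9.01 prior degrees of freedom). The residual spread comes from the null pair, and the single wild-type arrays are taken to vary as that pair does. Tests were two-sided, with Benjamini-Hochberg adjustment over all genes at 0.05. The fit was tested on simulated data with normal noise of equal spread on all 4 arrays. Most planted 2-fold changes were missed, nearly all of a log2 size of 2 or more were found, and some unchanged genes were called. Sizes in between were not planted, and in the measured data some genes past a log2 size of 2, such as Ccr2, did not pass.

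The comparison, the 30 gene lists (654 genes, of which 598 were measured) and the rules were chosen with earlier results of these data known. Named genes were Hdac3, the 15 largest changes each way at least 2-fold on both null arrays (genes past the test first, predicted genes passed over), list members past the test and up to 4 further members of each list by size. Others were chosen after their values were seen. No set test was run. Both steps share arrays with the main comparison, so they are not independent of it. Alternatives were the prior, the scaling, a filter on low levels, the choice of probe sets and the arrays in the fit.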

Additional observations from a re-analysis of the deposited data

How the results depend on the processing

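Of the 63 genes called against LSK/Flt3+ cells, all 63 were also called with robust estimation, 61 after median centring or cyclic loess, 50 after quantile normalization, 58 without the mean-dependent prior, 62 with probe sets averaged, 55 with each probe set tested by itself and 61 with the 3 compared arrays alone. Robust estimation gave 99 lower and 15 higher genes, and median centring 85 lower. Among 8418 genes with a mean level of 6 or more, 17 lower genes were called, and 114 met the 2-fold rule as lower. With a single null array, which leaves no test, the 2-fold counts ran from 113 to 342 higher and from 331 to 459 lower. The difference between the steps gave 0 calls in each setting in which it was fitted. Of 128 named genes, which leave out Cxcl16 and Hspa8, 16 values lost and 27 gained a call among 975 values in other settings, and 0 changed sign. With 1 null array left out, 3 genes did: Mcpt8 (-1.30 to 0.17), Pf4 (-1.89 to 0.84) and Ppbp (-0.17 to 2.14). Hspa8, outside these counts, had differences of 0.05, 0.01 and -2.64 on its probe sets, so its sign depended on the probe set. Changes of call or count by setting had causes that were not tested, except that the level filter tests fewer genes. No paired analysis was possible because each wild-type group has 1 array. Without detection calls, how far low levels stood above background is unknown, and each wild-type level rests on 1 array.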
